A study of Mus musculus with 9 samples.

Results

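The response of mouse embryonic stem cells to embryoid body formation was compared between cells with and without Hbxip, gene by gene, by RNA-seq. The difference described throughout is the change from pluripotent culture to embryoid bodies in Hbxip-/- cells minus the same change in wild-type cells. It rests on 6 of the 9 libraries of the series: 1 wild-type (WT) and 2 knockout (KO, Hbxip-/-) libraries in pluripotent culture, and 1 WT and 2 KO libraries of embryoid bodies. All of them came from E14, a line of mouse embryonic stem cells from strain 129, and no other allele, agent or treatment is given for any group. The other 3 libraries, 1 WT and 2 KO, came from cells kept for 96 h without LIF (day 4) and serve here as a second differentiation culture. The labels do not say how Hbxip was disrupted, for how long embryoid bodies were grown, or whether libraries came from separate cultures or clones. The p-values therefore measure the spread between these libraries, which may be technical, and the spread of each single WT library was taken to be that of the KO pairs.

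Hbxip, now named Lamtor5, encodes a subunit of Ragulator, the complex that anchors the Rag GTPases at the lysosome so that amino acids can activate mTORC1. Rag signalling also holds the transcription factors of the TFEB family in the cytoplasm, and mTORC1 promotes the synthesis of ATF4, which drives amino acid supply genes. Embryoid bodies are aggregates of stem cells that leave the naive pluripotent state, pass through a formative epiblast-like state and then begin to form germ layers, with primitive streak genes among the first to appear. LIF is the cytokine that keeps mouse stem cells undifferentiated. When the same gene changes differently in the 2 genotypes, the cells may already have differed before aggregation, or may have come to differ in the embryoid bodies, and each gene was sorted on that basis.

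The 6 libraries held 10147277 to 10604073 counts each, and 3 counts were worth 0.283 to 0.296 CPM. Lamtor5 itself stood at 40.7 FPKM (fragments per kilobase of gene length, scaled to library size) in WT pluripotent culture and 31 and 29.1 FPKM in KO pluripotent culture. In embryoid bodies it stood at 41.8 FPKM in WT against 23 and 18.3 FPKM in KO. Every KO library lay below its WT library, yet transcript remained in all of them, and a gene total does not show the edited sequence. The response difference of Lamtor5 was -0.71 ± 0.22 (adjusted p = 0.0199), a call that was lost with DESeq2 (adjusted p = 0.148), with length correction (adjusted p = 0.228), and without KO embryoid body library 2 (adjusted p = 0.0681) or KO pluripotent library 1 (adjusted p = 0.0548). Of 8 markers of pluripotent cells none was at 0 in any library, and they summed to between 4328 and 5140 FPKM. Of 8 fibroblast feeder markers 2 or 3 were at 0 in each library, Postn in all 6, and they summed to between 18.6 and 38.8 FPKM. In bulk RNA, fewer cells of a type and less RNA per cell cannot be told apart, which holds for every value below.

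Loss of Hbxip went with a different response to embryoid body formation at a large share of genes. Of 13990 genes tested, 5857 were called (41.9%), with an adjusted p below 0.05 by the quasi-likelihood test of edgeR, adjusted over all genes tested by Benjamini-Hochberg, the source of every adjusted p here unless another tool is named. The response was higher in KO, meaning a larger rise or a smaller fall, at 3127 genes (22.4%) and lower at 2730 (19.5%). DESeq2 called 3284 genes, 1728 higher and 1556 lower. Most differences were modest: 2633 of the called genes (18.8% of those tested) differed by at least 2-fold, and 3224 by less. The most frequent pattern among called genes was a change in KO with none called in WT, upward at 1367 genes and downward at 1273. The change in WT compares 1 library with 1 and that in KO 2 with 2, so a change of the same size is called more readily in KO, with a median standard error (log2) of 0.13 against 0.18 in WT. At 1075 genes the called changes ran in opposite directions, 559 of them down in WT and up in KO, and 516 up in WT and down in KO. Both changes were of at least 2-fold at 84 of the 559 and at 45 of the 516. The reverse of the commonest pattern, a change in WT with none called in KO, was seen at 585 genes that rose and 619 that fell in WT.

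The pluripotent start contributed more than the embryoid bodies to the larger differences. Genes were sorted by the KO minus WT difference in log2(FPKM + 0.5), taken in each culture, with at least 2-fold in both KO libraries' mean as the limit. Among the 2633 genes, 1077 (40.9%) differed at the start, 406 (15.4%) differed in embryoid bodies, and others differed in both, 70 of them on opposite sides of WT in the 2 cultures and 121 on the same side. The remaining 959 genes (36.4%) met none of these definitions. Where they responded higher in KO, their median KO minus WT was -0.70 at the start and 0.54 in embryoid bodies. Where they responded lower, the medians were 0.63 and -0.47. The start difference was the larger of the 2 at 1832 genes (69.6%). These shares are descriptions of the same 6 libraries that gave the calls. The limit is a line through a continuum: Sft2d2 was just inside the start class at -1.0 and Ap1s1 just outside it at 0.999, while Mcc was just inside the embryoid body class at -1.01 and Cd55 just outside it at 0.999.

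**Figure D1:**
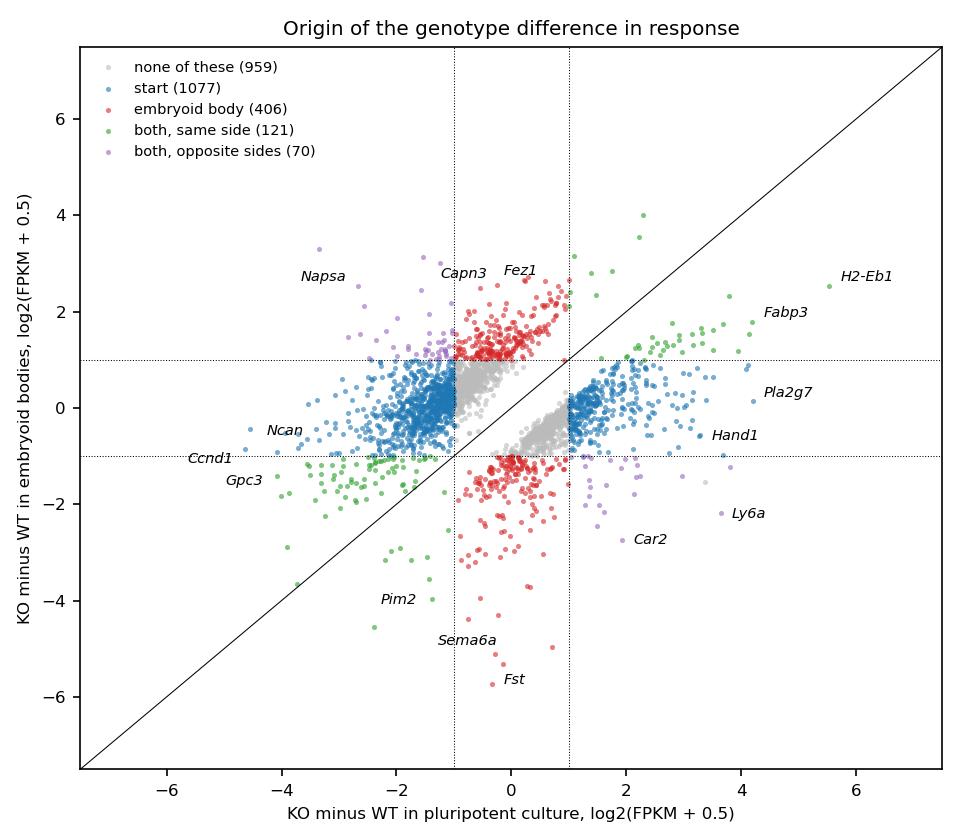
Each point is 1 of the 2633 genes whose response differed by at least 2-fold between genotypes. The horizontal axis gives KO minus WT in pluripotent culture and the vertical axis KO minus WT in embryoid bodies, both as log2(FPKM + 0.5), with dotted lines at 2-fold and a solid line where the response would be equal. The 1077 start genes (blue) spread along the horizontal axis and the 406 embryoid body genes (red) along the vertical axis, and Fst lies lowest.

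In pluripotent culture 51.8% of all genes differed between KO and WT, and in embryoid bodies 37.2%. By the sorting, genes of the start class differed by at least 2-fold in pluripotent culture and by less in embryoid bodies. Their convergence on WT is thus part of the definition. At 748 of the 1077 KO started lower and responded higher, with a median KO minus WT of -1.46 at the start and 0.04 in embryoid bodies. At the other 329 KO started higher and responded lower, with medians of 1.45 and 0.07. The split leaned to the first direction by 69.5%, by 61.3% once each culture's differences were centred on the median gene (-0.12 at the start), and by 57.0% in limma on quantile-normalized values. WT changed at 38.6% of all genes, upward at 19.7%, and KO, with 2 libraries a culture and the smaller standard error, at 61%, upward at 31%. Of the 748, 390 rose in KO with no change called in WT, and 186 fell in WT and rose in KO.

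Ccnd1, which encodes cyclin D1 of the G1 phase, is a clear case. It stood at 51.7 FPKM in WT against 1.28 and 1.98 FPKM in KO pluripotent culture, and at 18.1 FPKM in WT against 10.2 and 9.51 FPKM in KO embryoid bodies. KO libraries were lower in both cultures, but the gap narrowed, because Ccnd1 fell in WT and rose in KO. The response difference was 3.98 ± 0.22 (adjusted p = 4.01e-07). Smarca1, a chromatin remodelling ATPase, read 9.61 FPKM in WT against 0.38 and 0.58 FPKM in KO at the start, and 5.10 against 5.51 and 5.99 FPKM in embryoid bodies. The KO values were far below WT before and slightly above it after, a difference of 4.37 ± 0.31 (adjusted p = 2.03e-06). Pax8, a transcription factor of thyroid and kidney, had the largest difference among the genes named here for this direction, 4.39 ± 0.68 (adjusted p = 0.000387). Its KO pluripotent libraries were at 0.04 and 0.38 FPKM against 3.36 in WT, and its KO embryoid bodies at 1.62 and 2.27 against 1.35. Ncan, a proteoglycan of neural matrix, went from 0.10 and 0.25 to 2.46 and 3.61 FPKM in KO and from 6.35 to 5.04 FPKM in WT, a difference of 4.32 ± 0.48. Gfod1 and Lrcol1 completed the 5 largest, with 4.30 ± 0.31 and 4.24 ± 1.03.

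Several regulators of development and signalling followed that course. Kit, the receptor of stem cell factor, stood at 17.8 FPKM in WT against 1.54 and 2.25 FPKM in KO at the start, then at 11.5 and at 17.5 and 17.6 FPKM in embryoid bodies. KO was lower than WT in the first culture and higher in the second, and the response difference was 3.72 ± 0.25 (adjusted p = 1.5e-06). Dnmt3a, a de novo DNA methyltransferase, went from 6.07 and 7.38 to 34.8 and 40.0 FPKM in KO, while WT went from 29.5 to 22.3 FPKM. Its KO libraries thus passed from below WT to above it, by 2.72 ± 0.16 (adjusted p = 7.45e-07). Fgf15, an FGF ligand of the embryo, was at 0.80 and 1.25 FPKM in KO pluripotent culture against 19.2 in WT, and reached 22.5 and 22.4 FPKM against 32.8 in WT. All KO values were below WT, and the difference was 3.55 ± 0.26 (adjusted p = 2.32e-06). Lrp2, the endocytic receptor megalin, had a difference of 2.80 ± 0.19, and Rb1, the retinoblastoma repressor of the cell cycle, one of 1.82 ± 0.18.

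In the other direction, genes held high in KO pluripotent cells differed by less than 2-fold from WT in embryoid bodies, as the class requires. Of these 329, 142 fell in KO with no change called in WT, and 121 fell in KO and rose in WT. Another 37 rose in WT with no change called in KO. Pla2g7, which encodes a secreted phospholipase that degrades platelet-activating factor, was at 4.07 FPKM in WT against 84.2 and 83 FPKM in KO pluripotent culture. In embryoid bodies its level was 5.13 FPKM in WT against 5.37 and 6.04 FPKM in KO. The KO pluripotent pair stood alone, the other 4 libraries lying at 4.07 to 6.04 FPKM, and the response difference was -4.33 ± 0.23 (adjusted p = 3.66e-07). Hand1, a transcription factor of trophoblast and heart, was at 12.4 and 10.1 FPKM in that pair and between 0.67 and 1.32 FPKM in the other 4 libraries, a difference of -4.98 ± 0.65 (adjusted p = 0.000112). Nefm, a neurofilament subunit, was at 30.3 and 17.6 FPKM there against 1.33 to 3.76 FPKM elsewhere, and had the largest difference of these genes, -5.47 ± 0.59 (adjusted p = 3.07e-05). Elfn1, a synaptic adhesion protein, had -5.41 ± 0.57, and Loxl4, a collagen crosslinking enzyme, -4.32 ± 0.67. Apoe, the lipid carrier of endoderm and other tissues, was abundant throughout: 98.8 FPKM in WT against 1202 and 1063 FPKM in KO at the start, and 298 and then 505 and 436 FPKM in embryoid bodies. Its KO libraries remained above WT after aggregation, though by less than before, and the difference was -2.99 ± 0.18 (adjusted p = 7.45e-07).

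By the same sorting, genes of the embryoid body class differed by less than 2-fold at the start and by at least 2-fold in embryoid bodies. In 178 of the 406, KO ended lower than WT, with a median KO minus WT of -0.02 at the start and -1.50 in embryoid bodies. In 228, KO ended higher, with medians of -0.19 and 1.38. This class leaned to neither side as far as the start class did: 56.2% responded higher in KO, and 44.4% in limma on quantile-normalized values.

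The 5 genes named for the largest differences lower in KO were all high in WT embryoid bodies. Fst, which encodes follistatin, a secreted antagonist of activin, was at 0.58 FPKM in WT against 0.34 and 0.38 FPKM in KO pluripotent culture. It was at 29.8 FPKM in WT embryoid bodies and 0.15 and 0 FPKM in KO embryoid bodies. Only the WT embryoid body library was high among the 6, and the response difference was -8.06 ± 0.78 (adjusted p = 1.54e-05). T (brachyury), the transcription factor that marks the streak, reached 24 FPKM in that library and lay between 0.05 and 0.28 FPKM in the other 5, with a difference of -7.38 ± 0.92 (adjusted p = 8.71e-05). Wnt8a, a WNT ligand of the streak, was at 15.8 FPKM there and between 0.31 and 0.90 FPKM elsewhere, with -5.11 ± 0.66 (adjusted p = 0.000108). Mixl1, a mesendoderm homeobox factor, was at 5.67 FPKM there and at most 0.81 FPKM in the others, with -4.31 ± 0.63 (adjusted p = 0.000247). Sema6a, a membrane-bound guidance ligand, was at 21.6 FPKM there and at most 0.17 FPKM in the others, with -5.37 ± 0.89 (adjusted p = 0.00058). In each of these 5 genes the WT embryoid bodies stood alone, and that group is a single library. For Fst, T and Sema6a some other libraries were at or near 0 FPKM, so these sizes rest on few counts and are imprecise.

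The 5 genes named for the largest differences higher in KO had smaller differences than the 5 above. Capn3, a calpain protease of muscle, was at 4.54 FPKM in WT against 2.53 and 3.48 FPKM in KO at the start, and at 3.92 and then 23 and 25.8 FPKM in embryoid bodies. The KO embryoid body pair was high and the other 4 libraries were low, a difference of 3.14 ± 0.26 (adjusted p = 5.81e-06). Fez1, a kinesin adaptor of growing axons, fell in WT from 5.93 to 1.22 FPKM and stood in KO at 4.32 and 5.65 FPKM before and 9.26 and 10.1 FPKM after, a difference of 3.11 ± 0.38 (adjusted p = 8.13e-05). Hrh3, the histamine H3 receptor, was at 5.57 and 4.91 FPKM in KO embryoid bodies and at most 1.09 FPKM in the other libraries, with 3.58 ± 0.48 (adjusted p = 0.000137). Gsx2, a homeobox factor of the ventral forebrain, had 3.55 ± 1.0 (adjusted p = 0.0141), a call lost with DESeq2 (adjusted p = 0.0636). Dmrtc1c1 had 3.10 ± 0.60.

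At 70 genes the genotypes crossed, KO lying at least 2-fold to one side of WT at the start and at least 2-fold to the other side in embryoid bodies. Car2, a cytosolic carbonic anhydrase, was the most abundant gene named among them. It rose in WT from 35.3 to 405 FPKM and fell in KO from 143 and 128 to 60.3 and 60.8 FPKM. KO was above WT in the first culture and below it in the second, and the difference was -4.81 ± 0.16 (adjusted p = 1.5e-08). Ly6a, the surface antigen Sca-1, rose in WT from 2.55 to 13.2 FPKM and fell in KO from 41.4 and 34.2 to 2.11 and 3.04 FPKM, a difference of -6.41 ± 0.41 (adjusted p = 1.16e-06). Ccn1, a matricellular protein, gave -4.44 ± 0.28, Prtg, an adhesion receptor of the early embryo, -4.31 ± 0.24, and Pramel6, a PRAME family member of early embryonic cells, -6.40 ± 0.75. In all 5 the KO pair was above WT at the start and below it in embryoid bodies.

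Crossing in the other direction was shown by 45 of the 70. Mcf2, a guanine nucleotide exchange factor, was at 11 FPKM in WT against 1.33 and 1.36 FPKM in KO pluripotent culture, and at 7.74 FPKM in WT against 23.4 and 23.6 FPKM in KO embryoid bodies. The KO pairs differed little in each culture and lay on opposite sides of WT, a difference of 4.54 ± 0.18 (adjusted p = 6.48e-08). Napsa, an aspartic protease, fell in WT from 16.3 to 2.09 FPKM and rose in KO from 2.27 and 1.99 to 16.1 and 13 FPKM, with the largest difference of this kind, 5.56 ± 0.32 (adjusted p = 5.24e-07). Tek, the angiopoietin receptor of endothelium, moved from 0.44 and 0.50 to 5.16 and 4.23 FPKM in KO and from 4.89 to 2.0 FPKM in WT, a difference of 4.51 ± 0.29 (adjusted p = 1.08e-06). A2m, a protease inhibitor of plasma, had 5.14 ± 0.66, and Rhox10, a homeobox gene of the X-linked reproductive cluster, 4.91 ± 0.68.

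The 121 genes that differed to the same side in both cultures kept a genotype gap that widened or narrowed. Pim2, a survival kinase, showed the widening. It rose in WT from 17.2 to 364 FPKM and in KO from 5.68 and 7.04 to 19.6 and 26.7 FPKM, so that both genotypes responded but KO much less, by -2.66 ± 0.23 (adjusted p = 7.73e-06). Gpc3, a heparan sulphate proteoglycan, showed the narrowing. It was at 24.9 FPKM in WT against 0.64 and 1.47 FPKM in KO at the start, and at 72.3 FPKM in WT against 24.4 and 29.7 FPKM in KO embryoid bodies, below WT in all KO libraries, with 3.02 ± 0.45 (adjusted p = 0.000278). Fabp3, a fatty acid carrier, rose in WT from 47 to 145 FPKM and fell in KO from 919 and 827 to 546 and 460.1 FPKM, above WT in all KO libraries, with -2.55 ± 0.20 (adjusted p = 4.35e-06). H2-Eb1, an MHC class II chain, was at 0.40 and 2.78 FPKM in the WT libraries and at 42.2 and 39.8 before and 21.1 and 16.2 FPKM after in KO, with -4.06 ± 0.51 (adjusted p = 9.06e-05). Ebf1, a B-cell transcription factor, had -3.38 ± 0.40 and Cyp2b23, a cytochrome P450, -3.29 ± 0.44. Tspan7, a tetraspanin, had 2.74 ± 0.36, Acot1, an acyl-CoA thioesterase, 2.79 ± 0.44, Wdr86 2.89 ± 0.56, and Jph4, a junctophilin, 2.75 ± 0.42. The Jph4 call was lost in limma on log2(FPKM + 1), with an adjusted p of 0.0764, and on quantile-normalized values, with 0.166. The direction of this class depended on the scale: 79 of 121 genes were higher by edgeR, but 28 of 81 by limma on log2(FPKM + 1) and 22 of 89 by limma on quantile-normalized values.

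**Figure D2:**
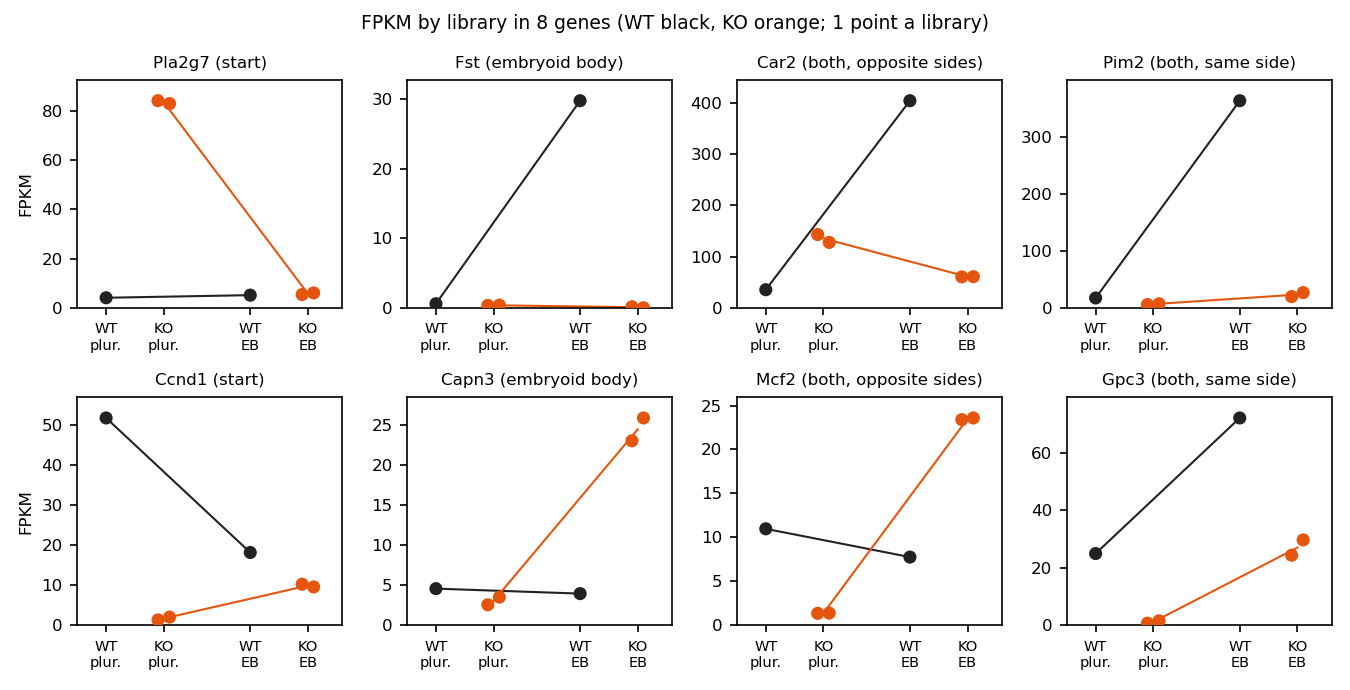
FPKM in each of the 6 libraries for 8 genes, with a linear axis from 0 for each gene; black is WT (1 library a culture) and orange is KO (2 libraries a culture), and lines join the WT values and the KO means. Pla2g7 and Ccnd1 differ at the start, Fst and Capn3 in embryoid bodies, Car2 and Mcf2 cross, and Pim2 and Gpc3 stay lower in KO in both cultures.

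The LIF withdrawal libraries are no part of the response comparison or of the sorting, and entered the calls only through the shared spread, the normalization and the filter on low values. Their own genotype difference was read for each class. Among all genes tested there, KO was higher than WT at 18.4% and lower at 17.5%. Of the 228 embryoid body genes that were higher in KO, 177 were also called higher in KO after LIF withdrawal and 5 lower, with a median KO minus WT of 1.11. Of the 178 that were lower in KO, 138 were called lower and 1 higher, with a median of -1.38. The start class behaved otherwise. Of its 748 genes with KO lower at the start, 289 were called lower and 43 higher after LIF withdrawal, and the median difference was -0.44. Of its 329 with KO higher at the start, 120 were called higher and 31 lower, with a median of 0.32. The genes that crossed sided with the embryoid bodies: of the 45 that ended higher in KO, 23 were called higher and 3 lower, and of the 25 that ended lower, 10 were called lower and 1 higher. No test was made of these shares, since genes are not replicates.

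**Figure D3:**
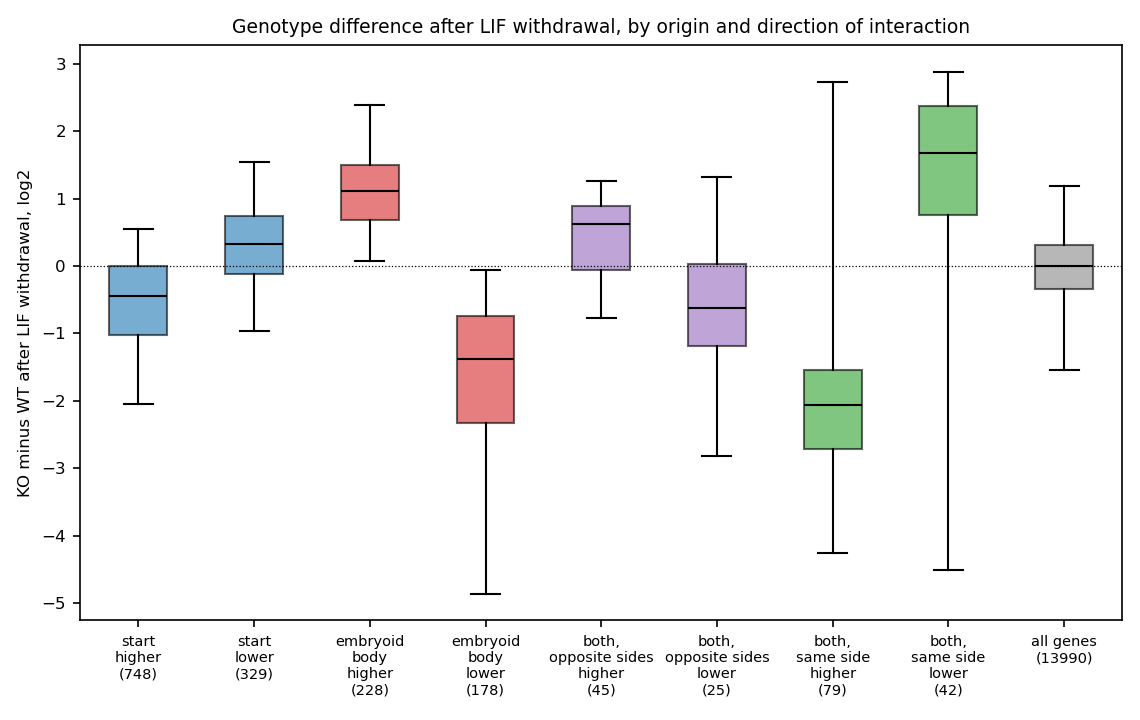
KO minus WT after 96 h without LIF (log2, vertical axis) for the genes of each class and direction of the response difference, with the number of genes in brackets. Boxes span the quartiles with the median as a line, and whiskers run from the 5th to the 95th percentile of genes; the embryoid body boxes (red) lie to either side of 0, at medians of 1.11 and -1.38, farther out than the start boxes (blue), at -0.44 and 0.32.

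The genotype difference in embryoid bodies was then tested directly against that after LIF withdrawal, a comparison with no pluripotent library in it. It was called at 481 genes (3.44%), 295 higher (2.11%) and 186 lower (1.33%). The count was 166 without KO embryoid body library 1, 203 without KO embryoid body library 2 and 306 without LIF withdrawal library 1 of KO, and DESeq2 called 236 and limma on log2(FPKM + 1) 116. Among the 40 genes named by class, 13 were called. These genes were chosen for a large response difference, which uses the same embryoid body libraries. Their share therefore cannot be set beside the 3.44% of all genes. For Car2, KO minus WT was -2.75 in embryoid bodies and -0.47 after LIF withdrawal, and the difference between them was -2.28 (adjusted p = 4.57e-05). Mcf2 was 1.61 in embryoid bodies and -0.05 after LIF withdrawal, where no difference was called, and these differed by 1.66 (adjusted p = 0.00042). Tek lay on opposite sides, 1.25 and -0.75, which differed by 2.0 (adjusted p = 0.00234). Sema6a was lower in KO in both cultures, by -7.29 in embryoid bodies and -4.53 after LIF withdrawal, a difference of -2.75 (adjusted p = 0.0035). Its KO libraries were all low, at 0.17 and 0.11 FPKM in embryoid bodies and 0.19 and 0.19 FPKM after LIF withdrawal. WT stood at 21.6 and 4.51 FPKM, so the Sema6a difference followed mostly the single WT library of each culture. For T and Wnt8a no such difference was called, at -1.13 (adjusted p = 0.466) and 0.23 (adjusted p = 0.85).

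Gene groups were then described by how many of their tested members were called, beside the shares over all genes, 22.4% higher and 19.5% lower with a median response difference of 0.04. The lists are of textbook members by role, and no list was tested as a set.

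**Figure D4:**
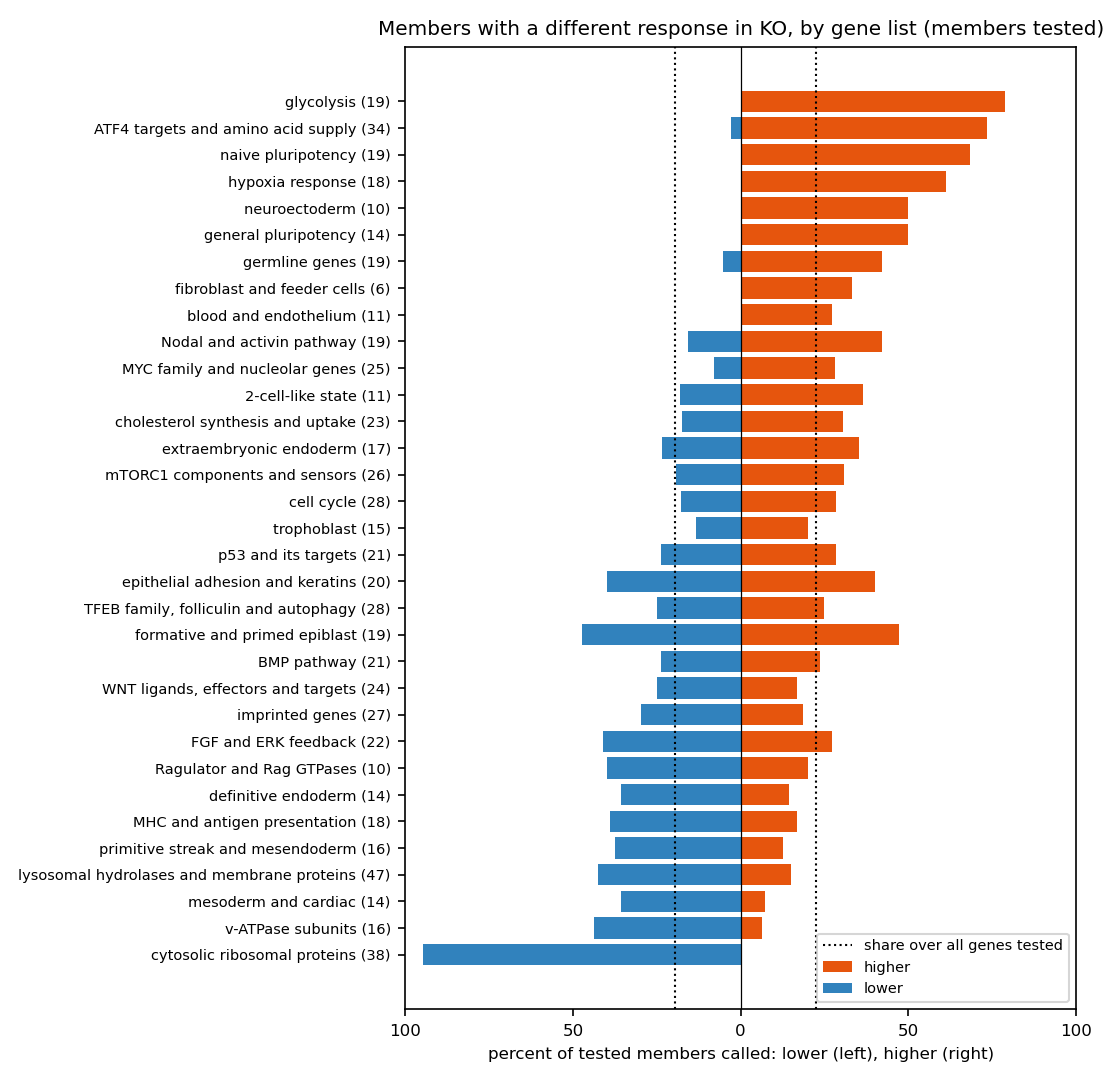
Percent of each list's tested members (number in brackets) called higher, to the right, or lower, to the left, in the response of KO against that of WT, with dotted lines at the shares over all genes tested. Glycolysis, ATF4 targets and naive pluripotency extend farthest to the right, with 15 of 19, 25 of 34 and 13 of 19 members, and cytosolic ribosomal proteins farthest to the left, with 36 of 38.

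Of 19 naive pluripotency genes, 15 fell in WT embryoid bodies, where 18.9% of all genes did, and 8 fell in KO, where 30% did. The response of 13 was higher in KO and of none lower, with a median of 0.96. Klf4, a naive transcription factor downstream of LIF, was at 155 FPKM in WT against 85.6 and 90.5 FPKM in KO at the start, and at 17.3 FPKM in WT against 51.7 and 41.6 FPKM in KO embryoid bodies. KO was lower before and higher after, and the difference was 2.12 ± 0.17 (adjusted p = 4.05e-06). Tbx3, a naive T-box factor, fell in WT from 104 to 26.1 FPKM and in KO from 87.5 and 87.7 to 73.3 and 65.8 FPKM, a difference of 1.54 ± 0.13 (adjusted p = 5.4e-06). Klf5 fell in WT from 125 to 52.5 FPKM but was higher after than before in KO, at 82.8 and 89.1 and then 109.6 and 109.9 FPKM, a difference of 1.47 ± 0.12 (adjusted p = 5.52e-06). In all, 5 list members were in the embryoid body class, all higher in KO: these 3, Esrrb and Nr0b1. After LIF withdrawal, in libraries outside the response comparison, KO minus WT was 1.55 (adjusted p = 2.1e-06) for Klf4, 1.21 (adjusted p = 1.37e-06) for Tbx3 and 1.19 (adjusted p = 1.39e-06) for Klf5. Fgf4, the FGF ligand that drives exit from the naive state, also responded higher, by 1.73 ± 0.14 (adjusted p = 5.31e-06), with no genotype difference called after LIF withdrawal (-0.16 (adjusted p = 0.223)). The DNA demethylase gene Tet1 gave 1.16 ± 0.13 (adjusted p = 3.68e-05). General pluripotency genes had 7 of 14 higher and none lower, median 0.35, among them Sox2 with 0.90 ± 0.13, L1td1 with 0.85 ± 0.14 and Tdgf1, the Nodal co-receptor, with 0.91 ± 0.15.

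Formative and primed epiblast genes, which rise as cells leave the naive state, split evenly in the response. They were mostly lower in KO in each culture. At the start 12 of 19 were lower in KO and 3 higher, where 26.3% of all genes were lower and 25.5% higher. In embryoid bodies 13 were lower and 1 higher, where 17.8% of all genes were lower and 19.4% higher. Their summed level there was 1646 FPKM in WT against 576 and 654 FPKM in KO. Of 19, 9 responded higher and 9 lower in KO, and the sign of the median (0.16) changed under 3 alternative settings, among them that without KO embryoid body library 2 (-0.11). Dnmt3b, a de novo DNA methyltransferase, rose in WT from 41.3 to 182 FPKM, while KO stood at 37.3 and 34.3 FPKM before and 34.9 and 41.3 FPKM after, with no change called. WT embryoid bodies alone were high, and the difference was -2.17 ± 0.17 (adjusted p = 3.16e-06), the opposite sign to that of Dnmt3a. Dusp6, a phosphatase that ERK signalling induces and that restrains it, rose in WT from 20.9 to 132 FPKM and stood in KO at 58.7 and 52 FPKM before and 59.5 and 69.4 FPKM after, a difference of -2.57 ± 0.18 (adjusted p = 2.03e-06).

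Primitive streak genes had 6 of 16 lower and 2 higher, or 1 higher without KO embryoid body library 2 or either KO pluripotent library. In embryoid bodies 12 of the 16 were lower in KO and 1 higher, where 17.8% of all genes were lower and 19.4% higher. The list's summed level there was nevertheless 248 FPKM in WT against 279 and 292 FPKM in KO. Their median of -3.17 was dominated by 7 members with 3 or fewer counts in a group, and it was -0.42 without them and -1.17 without KO pluripotent library 2. Besides T and Mixl1, Fgf8, an FGF ligand of the streak, was at 30.8 FPKM in WT embryoid bodies and at most 0.54 FPKM in the other 5 libraries. Evx1, a homeobox factor of the posterior streak, was at 1.97 FPKM in WT embryoid bodies and at most 0.39 FPKM elsewhere. Sizes are not given for Fgf8 and Evx1, since at least 1 group held 3 or fewer counts. Not every streak gene followed: Eomes, a T-box factor of mesendoderm, was at 35 FPKM in WT against 14.8 and 14.9 FPKM in KO embryoid bodies, and its response difference of -0.49 ± 0.23 (adjusted p = 0.113) missed the threshold. Eomes is named here after its values were seen. In the mesoderm and cardiac list 5 of 14 were lower and 1 higher, median -1.03 (-0.59 in limma on quantile-normalized values), among them Snai1, a repressor of E-cadherin, with -2.28 ± 0.29, and Twist1, a mesenchymal factor, with -2.54 ± 0.53. Both were start genes, held higher in KO pluripotent culture, as was Hand1.

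**Figure D5:**
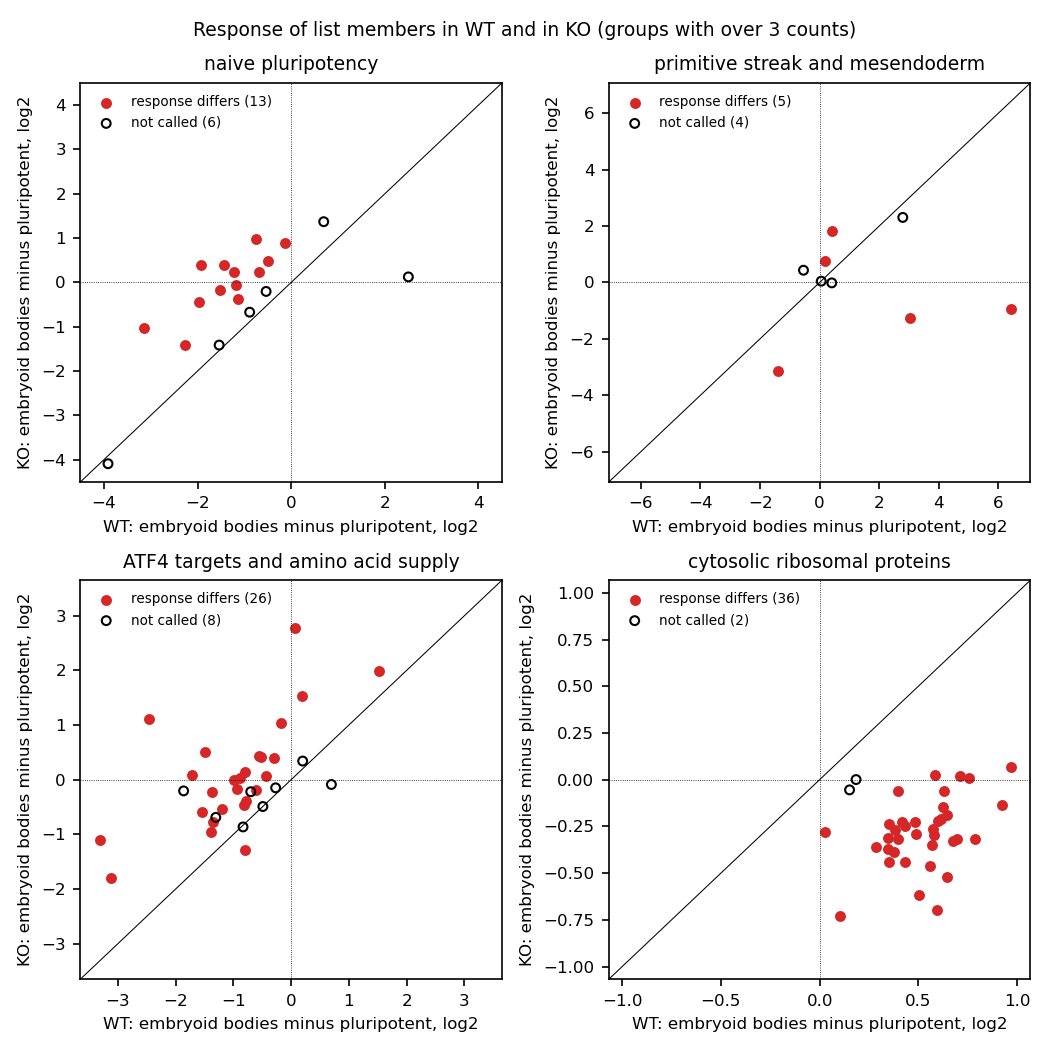
Change from pluripotent culture to embryoid bodies (log2) in WT on the horizontal axis and in KO on the vertical axis, 1 point a gene, for members of 4 lists with over 3 counts in each group; the line marks equal responses. Red points are called, 13 of 19 naive genes, 5 of 9 streak genes, 26 of 34 ATF4 list genes and 36 of 38 ribosomal protein genes; naive and ATF4 points lie mostly above the line and all called ribosomal protein points lie below it.

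Signalling pathways showed no single direction in the response. In the FGF and ERK feedback list 9 of 22 were lower and 6 higher, median -0.55. Spry2, a feedback inhibitor of receptor tyrosine kinases, rose in WT from 39.6 to 81.4 FPKM and stood at 52.8 and 55.7 and then 49.3 and 52.6 FPKM in KO, with -1.26 ± 0.13 (adjusted p = 2.61e-05), the same sign as Dusp6 and the opposite of the ligands Fgf4 and Fgf15. In the WNT list 6 of 24 were lower and 4 higher, and the sign of the median (-0.08) changed under 3 settings. At the start 10 of the 24 were lower in KO and 4 higher, where 26.3% of all genes were lower. In embryoid bodies 14 were lower and 3 higher, where 17.8% of all genes were lower and 19.4% higher. Notum, a secreted inhibitor that removes the lipid from WNT ligands, was the opposite of Wnt8a. It fell in WT from 13 to 3.97 FPKM and was at 7.78 and 8.86 and then 15.3 and 11.9 FPKM in KO, with 2.29 ± 0.27 (adjusted p = 5.9e-05). Fzd10, a WNT receptor, had 1.69 ± 0.30. In the Nodal and activin list 8 of 19 were higher and 3 lower, median 0.30, which turned to -0.15 with length correction. Pcsk6, a protease that matures Nodal, fell in WT from 15.8 to 3.17 FPKM and in KO from 24.1 and 23.4 to 14.9 and 15.6 FPKM, a difference of 1.56 ± 0.16 (adjusted p = 1.98e-05). Acvr1b, an activin receptor, had 1.58 ± 0.18, while Foxh1, the DNA-binding partner of SMADs in Nodal signalling, had -1.78 ± 0.15. The BMP list had 5 higher and 5 lower of 21, and 3 higher without KO embryoid body library 2 or KO pluripotent library 1. Id2, a BMP-induced inhibitor of bHLH factors, crossed: WT went from 23.7 to 49.2 FPKM and KO from 4.69 and 6.63 to 102 and 107 FPKM, with 3.03 ± 0.21 (adjusted p = 2.03e-06). Id3 had 1.07 ± 0.17, and Bambi, a BMP pseudoreceptor, -1.31 ± 0.34, a call lost with DESeq2 (adjusted p = 0.0818).

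Among lineage lists, neuroectoderm had 5 of 10 higher and none lower, median 0.97, with 3 higher without KO embryoid body library 2 and a median of 0.22 in limma on quantile-normalized values. At the start 6 of the 10 were lower in KO and 2 higher, where 26.3% of all genes were lower. In embryoid bodies 4 were lower and 3 higher, where 17.8% of all genes were lower and 19.4% higher. Ncam1, a neural adhesion molecule, was at 7.92 and 6.81 FPKM in KO and 2.03 FPKM in WT embryoid bodies, from 4.25 and 4.84 and 7.13 FPKM respectively, a difference of 2.41 ± 0.23 (adjusted p = 1.5e-05). Sox1, the early neural factor, was at 3.53 and 2.08 FPKM in KO and 0.19 FPKM in WT embryoid bodies, with 2.77 ± 0.63 (adjusted p = 0.00408), a call lost in limma on quantile-normalized values (adjusted p = 0.0905). Tubb3, a neuronal tubulin, had 1.84 ± 0.18 through a steeper fall in WT. Extraembryonic endoderm had 6 of 17 higher and 4 lower, including Nid1 with 1.19 ± 0.13 and Lamb1 with 1.58 ± 0.21, both of the basement membrane. Definitive endoderm had 5 of 14 lower and 2 higher, including Krt8, a simple epithelial keratin. Krt8 crossed from 40.8 and 34.4 to 9.18 and 8.64 FPKM in KO and from 14.3 to 33.1 FPKM in WT, with -3.41 ± 0.21 (adjusted p = 7.96e-07). In the blood and endothelium list 3 of 11 were higher and none lower (1 lower without KO embryoid body library 2), Tek, Pecam1, an endothelial adhesion molecule that stem cells also carry, with 2.10 ± 0.15, and Sox7, with 2.12 ± 0.51, whose call was lost with DESeq2 (adjusted p = 0.122). Trophoblast genes had 3 of 15 higher and 2 lower, or 4 lower without KO embryoid body library 2.

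Amino acid supply genes, many of them ATF4 targets, started low in KO, and that deficit was smaller in embryoid bodies. Of 34, 25 responded higher in KO and 1 lower, with a median of 0.73 that stayed between 0.71 and 0.85 over 15 alternatives. DESeq2 called 16 higher. The lower one, named after its values were seen, was Atf4 itself (-0.48 ± 0.15), a call lost in 8 of the alternatives, among them DESeq2 and those without KO embryoid body library 2 or KO pluripotent library 1. In pluripotent culture 27 of the 34 were lower in KO and none higher, where 26.3% of all genes were lower. In embryoid bodies 11 were lower and 4 higher, where 17.8% of all genes were lower and 19.4% higher, and the median KO minus WT went from -0.69 to -0.17. In WT 25 of the 34 fell and 1 rose, with a median change of -0.81, and in KO 14 fell and 8 rose, with a median of -0.16, where 18.9% of all genes fell in WT and 30% in KO. Slc7a3, a cationic amino acid transporter, stood at 59 FPKM in WT against 8.20 and 12 FPKM in KO at the start, and at 61.3 FPKM in WT against 71.8 and 77.4 FPKM in KO embryoid bodies. WT was flat and KO rose to above WT, a difference of 2.71 ± 0.19 (adjusted p = 1.91e-06). Stc2, a secreted glycoprotein induced by stress, fell in WT from 17.2 to 3.08 FPKM and rose in KO from 1.29 and 1.98 to 3.70 and 3.95 FPKM, with 3.58 ± 0.50 (adjusted p = 0.000175). Psat1, an enzyme of serine synthesis, fell in WT from 166 to 63 FPKM and stood in KO at 36.9 and 37.8 and then 33.2 and 35.8 FPKM, with 1.15 ± 0.12 (adjusted p = 3.16e-05). Slc7a1, another cationic amino acid transporter, fell in WT from 23.6 to 7.13 FPKM and was at 13.5 and 13.1 and then 14.5 and 15.9 FPKM in KO, with 1.80 ± 0.14 (adjusted p = 3.83e-06). The sestrin Sesn2, a leucine sensor upstream of mTORC1, had 1.22 ± 0.20 (adjusted p = 0.0005).

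The sequence TGATGNAA, the core of the element bound by ATF4 with C/EBP partners, was searched on both strands of the RefSeq promoter windows (250 bases before to 50 after a gene's start, GRCm38.p6). It was in 10 of 31 windows of 28 matched list genes (32.3%) and in 3.97% of 32851 windows overall. Many members were listed because they are ATF4 targets, and all matched members were counted whichever way they responded. The share therefore describes the list and not the response. The bases before the start are shown for the 2 called members that hold a match there with the smallest adjusted p, with the match in capitals. Both are known ATF4 targets, one an asparagine synthetase and the other a glutathione-degrading enzyme.
Asns (chr6:7693210-7693459, minus strand): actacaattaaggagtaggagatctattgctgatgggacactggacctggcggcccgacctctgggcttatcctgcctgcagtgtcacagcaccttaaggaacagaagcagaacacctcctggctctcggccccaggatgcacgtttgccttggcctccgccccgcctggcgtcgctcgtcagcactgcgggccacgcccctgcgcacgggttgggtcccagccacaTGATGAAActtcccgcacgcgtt
Chac1 (chr2:119350992-119351241, plus strand): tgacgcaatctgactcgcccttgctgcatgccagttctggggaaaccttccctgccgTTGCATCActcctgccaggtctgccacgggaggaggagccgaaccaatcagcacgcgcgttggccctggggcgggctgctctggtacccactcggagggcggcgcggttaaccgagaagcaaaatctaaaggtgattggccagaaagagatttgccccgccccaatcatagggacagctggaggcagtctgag
Asns was at 282 FPKM in WT against 279 and 293 FPKM in KO at the start, and at 122 FPKM in WT against 212 and 214 FPKM in KO embryoid bodies. The KO libraries lay on either side of WT before and above it after, a difference of 0.66 ± 0.11 (adjusted p = 0.000618). Chac1 was at 15.6 FPKM in WT against 2.94 and 2.37 FPKM in KO at the start, and at 1.53 and then 1.24 and 1.44 FPKM in embryoid bodies, where all 3 libraries were low, with 2.22 ± 0.40 (adjusted p = 0.00107). The 2 genes with a match thus reached a positive response difference from different starts. A match in a window is a description of its letters, and binding was not measured.

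Glycolysis and hypoxia genes also responded higher in KO. In the glycolysis list 15 of 19 were higher and none lower, median 0.70, and DESeq2 called 9 higher. At the start 13 of the 19 were lower in KO and 1 higher, where 26.3% of all genes were lower. In embryoid bodies 6 were higher, 1 lower and 12 not called, where 19.4% of all genes were higher. Ldhb, a lactate dehydrogenase subunit, was at 114 FPKM in WT against 36 and 40.1 FPKM in KO at the start, and at 350.0 and then 414 and 419 FPKM in embryoid bodies. KO was below WT before and above it after, with 1.71 ± 0.17 (adjusted p = 1.98e-05). Slc2a3, a glucose transporter, went from 486 to 386 FPKM in WT and from 196 and 240.1 to 566 and 543 FPKM in KO, with 1.55 ± 0.18 (adjusted p = 5.65e-05). Pfkfb3 and Pfkp, at the phosphofructokinase step, had 2.69 ± 0.43 and 1.58 ± 0.25. In the hypoxia list 11 of 18 were higher and none lower, median 0.95, and DESeq2 called 7 higher. Against the same shares, 11 of the 18 were lower in KO at the start and none higher. In embryoid bodies 5 were higher, none lower and 13 not called. Bnip3, a mitophagy receptor induced by HIF, varied between KO libraries. It was at 164 FPKM in WT but at 18.1 and 50.6 FPKM in the 2 KO pluripotent libraries, and at 79.1 FPKM in WT against 107 and 131 FPKM in KO embryoid bodies. Both KO pluripotent values lay below WT but differed from each other by more than 2-fold, and the difference was 2.73 ± 0.53 (adjusted p = 0.00153). The list's median was 1.37 without KO pluripotent library 2 and 0.80 without library 1. Kdm3a, a HIF-induced histone demethylase, was similar in the KO pluripotent pair (35.1 and 38.9 FPKM, against 48.3 in WT) and reached 60.1 and 63.5 FPKM in KO against 28.4 in WT embryoid bodies, with 1.38 ± 0.12 (adjusted p = 9.43e-06). Ero1a, an oxidase of protein folding, had 1.51 ± 0.25.

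Lysosomal genes mostly stood higher in KO in both cultures. Of 47 lysosomal hydrolase and membrane protein genes, 30 were higher in KO at the start, where 25.5% of all genes were, and 30 in embryoid bodies, where 19.4% of all genes were. In the response 20 were lower and 7 higher, and the sign of the median (-0.05) changed under 3 settings. Hexa, a subunit of beta-hexosaminidase, rose in WT from 10.3 to 34.1 FPKM and fell in KO from 129 and 117 to 81.8 and 77.2 FPKM. All KO values were above both WT values, and the difference was -2.48 ± 0.17 (adjusted p = 1.5e-06). Cd63, a tetraspanin of late endosomes, rose in WT from 40.2 to 81.3 FPKM and fell in KO from 271 and 249 to 121 and 108 FPKM, with -2.32 ± 0.17 (adjusted p = 2.55e-06). The cathepsins went both ways. Ctsc rose in WT from 2.06 to 19.5 FPKM and was at 6.68 and 5.51 and then 6.42 and 6.76 FPKM in KO, with -3.21 ± 0.25 (adjusted p = 3.91e-06). Ctsf rose in KO from 3.37 and 4.38 to 16.1 and 16.4 FPKM and went from 9.27 to 5.77 FPKM in WT, with 2.62 ± 0.24 (adjusted p = 1.17e-05). Of 16 subunits of the v-ATPase, the proton pump of the lysosome, 14 were higher in KO at the start and 11 in embryoid bodies, to be read against the same shares. In the response 7 were lower and 1 higher, median -0.28. That median was -0.16 with length correction and -0.06 in limma on quantile-normalized values, each with 4 lower and 2 higher, and -0.16 without normalization factors. Atp6v0c had -1.66 ± 0.20, Atp6v1g1 -0.94 ± 0.13, and Atp6v1a, the higher one, 0.85 ± 0.12.

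The letters CACGTGAC, from the CLEAR element of the TFEB family, were found on either strand in 11 of 42 windows of 37 matched lysosomal genes (26.2%), in 2 of 13 windows of v-ATPase genes and in 2.25% of all windows. These shares, too, describe the lists and not the response of their members. The 2 called members of these lists with a match before the start and the smallest adjusted p are shown in the same way, one a serine carboxypeptidase that protects other lysosomal enzymes and the other a membrane subunit of the proton pump.
Ctsa (chr2:164833523-164833772, plus strand): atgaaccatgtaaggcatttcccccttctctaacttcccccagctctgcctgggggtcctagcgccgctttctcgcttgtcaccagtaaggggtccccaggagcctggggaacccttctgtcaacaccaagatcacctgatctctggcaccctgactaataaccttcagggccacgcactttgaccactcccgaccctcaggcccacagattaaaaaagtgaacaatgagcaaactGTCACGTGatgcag
Atp6v0b (chr4:117887330-117887579, minus strand): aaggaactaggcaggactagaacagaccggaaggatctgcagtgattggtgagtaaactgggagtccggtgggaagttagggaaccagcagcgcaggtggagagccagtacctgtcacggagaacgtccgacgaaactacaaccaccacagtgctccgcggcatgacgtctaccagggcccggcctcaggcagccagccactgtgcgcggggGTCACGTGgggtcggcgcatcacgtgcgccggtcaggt
Ctsa was at 27.3 FPKM in WT against 127 and 127 FPKM in KO at the start, and at 39.5 FPKM in WT against 100.3 and 98.4 FPKM in KO embryoid bodies. Every KO library was above every WT library, and the gap narrowed by -1.02 ± 0.12 (adjusted p = 4.99e-05). Atp6v0b was at 44.2 FPKM in WT against 101 and 102 FPKM in KO at the start, and at 79 and then 88.4 and 85.5 FPKM in embryoid bodies, where the KO pair exceeded WT only slightly, with -1.19 ± 0.14 (adjusted p = 5.42e-05). Both genes therefore narrowed from a KO excess at the start.

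Among the partners of Lamtor5 and the pathway around them, calls went in both directions. In the Ragulator and Rag GTPase list, without Lamtor5, 4 of 10 members were lower and 2 higher, median -0.41, which was -0.11 with length correction and -0.17 in limma on quantile-normalized values. With length correction 3 were lower. Lamtor4, a Ragulator subunit, was at 21 FPKM in WT against 44.5 and 40.9 FPKM in KO at the start, and at 33 FPKM in WT against 29.5 and 26.8 FPKM in KO embryoid bodies. KO was higher before and slightly lower after, with -1.38 ± 0.21 (adjusted p = 0.000366). Lamtor1, the membrane anchor of the complex, had -0.57 ± 0.14, which was lost with length correction (adjusted p = 0.131). Among the Rag GTPases, Rragd rose in WT from 6.96 to 20.4 FPKM and in KO from 10.7 and 9.94 to 13.5 and 14.2 FPKM, with -1.26 ± 0.15 (adjusted p = 5.22e-05), while Rragb had the opposite sign, 0.96 ± 0.15. The mTORC1 list had 8 of 26 higher and 5 lower, near the shares over all genes, and the lower count was 2 without either KO embryoid body library and 3 without KO pluripotent library 2. Its inhibitor Akt1s1 (PRAS40) had -1.46 ± 0.23 and Depdc5, of the GATOR1 complex that inactivates the Rags, 0.99 ± 0.16. In the response of the TFEB, folliculin and autophagy list 7 of 28 were higher and 7 lower, near the shares over all genes. Without KO embryoid body library 1, 4 were lower. At the start 13 were higher in KO and 7 lower, where 25.5% of all genes were higher and 26.3% lower. In embryoid bodies 16 were higher and 3 lower, where 19.4% of all genes were higher and 17.8% lower. Sqstm1, an autophagy receptor, rose in WT from 80.2 to 149 FPKM and fell in KO from 263 and 243 to 230.4 and 216 FPKM, with -1.20 ± 0.13 (adjusted p = 3.16e-05), and Ulk1, the kinase that starts autophagy, had 1.19 ± 0.12.

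Cytosolic ribosomal protein genes gave the most uniform difference, at a small size. Of 38, 36 responded lower in KO and none higher, with a median of -0.77. In WT 33 of the 38 rose with embryoid body formation, where 19.7% of all genes did, and in KO 28 fell, where 30% of all genes did. Rps15 was at 1554 FPKM in WT pluripotent culture against 2468 and 2483 FPKM in KO, and at 2644 FPKM in WT embryoid bodies against 2219 and 2061 FPKM in KO. Its difference was -1.11 ± 0.12 (adjusted p = 2.91e-05). Rps20 had -1.02 ± 0.11 and Rpl10a -1.02 ± 0.11. The call of Rpl10a was lost in limma on quantile-normalized values (adjusted p = 0.109). Gene length moved with this result. With a correction of each library for gene length 19 of 38 were lower, median -0.37, and in limma on quantile-normalized values 6 were lower and 2 higher, median -0.14. The genes of the MYC and nucleolar list, which build ribosomes, had 7 of 25 higher and 2 lower, median 0.02. Nolc1, a nucleolar chaperone, had 0.96 ± 0.13, and Ncl, nucleolin, 0.72 ± 0.13, which was lost with length correction (adjusted p = 0.116).

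Length moved with the response difference across the whole transcriptome as well. Over 13990 genes, Spearman's rank correlation of log2 gene length was 0.30 with the response difference, -0.23 with KO minus WT at the start and 0.15 in embryoid bodies; genes of 1 library set share depth and composition, so no p is given. The median length was 3364 bases in start genes that responded higher, 1898 bases in start genes that responded lower and 2676 bases over all genes. With length correction 4972 genes were called, 2442 higher and 2530 lower, and the start class held 1009 genes, 693 higher and 316 lower.

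Of the remaining lists, the cell cycle had 8 of 28 higher and 5 lower, near the shares over all genes, with 3 lower without KO embryoid body library 2. Apart from Ccnd1 and Rb1, Top2a, the topoisomerase of dividing cells, had 0.82 ± 0.13. Ccnd2, which encodes cyclin D2, was at 4.59 FPKM in WT against 0.03 and 0 FPKM in KO at the start, and at 0.88 FPKM in WT against 0.12 and 0.10 FPKM in KO embryoid bodies, so low in KO that no size is given. Cholesterol genes had 7 of 23 higher and 4 lower. Dhcr7, of the last step of cholesterol synthesis, was at 29.9 FPKM in WT against 8.03 and 8.87 FPKM in KO at the start and at 27.2 and then 15 and 18.4 FPKM in embryoid bodies, lower in KO throughout, with 0.99 ± 0.17 (adjusted p = 0.000844). Srebf2, the main activator of these genes, had 0.72 ± 0.12. Of the p53 list 6 of 21 were higher and 5 lower. Perp, a p53-induced membrane protein, was at 27.8 FPKM in WT against 16.1 and 13.6 FPKM in KO at the start and at 26.4 and then 4.51 and 3.13 FPKM in embryoid bodies, the KO pair being lowest there, with -2.02 ± 0.26 (adjusted p = 0.000102).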

How the data were processed

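RNA-seq was made from total RNA of E14 cells, in 9 libraries and 6 groups set by the labels. Per the submitters' processing notes, Bowtie2 and mouse build mm8 were used; quantifier, strandedness and annotation are not given in the sources used here, so overlapping or duplicated genes can share reads. Each deposited table gives, for 1 library and per the file headers, the estimated count (expected count), the FPKM value and the length of each gene. The authors' FPKM values scale by length and library size and were used for levels and for sorting genes.

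Expected counts were rounded, unlisted genes were set to 0, and of 20287 gene IDs 20234 were named by ID and 9 by accession from RefSeq tables. A mean of at least 0.5 FPKM over 9 libraries was required for testing (13990 genes), done with edgeR 4.0.16 (glmQLFit and glmQLFTest, TMM factors 0.94 to 1.04, 3 residual degrees of freedom, biological coefficient of variation 6.52%) in R 4.3.3. All 9 libraries entered the fit so that the 3 KO pairs shared 1 estimate of the spread. Values after ± are the log2 difference divided by the root of its F statistic, and can lie below counting error where counts are few. Chi-square per degree of freedom within KO pairs was 2.88 to 4.37, above counting noise, so no pair was taken as 1 library deposited again. Alternatives were DESeq2 1.42.0, limma 3.58.1 on log2(FPKM + 1), log2(FPKM + 0.1) and quantile-normalized values, other scalings, filters, a length correction, a replicate block and left-out libraries. Centring of the sorted differences was chosen after seeing the data. The scripts were tested on simulated data.

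A gene was sorted as start or embryoid body where KO differed from WT by at least 2-fold in that culture alone, both KO libraries on 1 side. Named genes were, per class and direction, the 5 largest called differences with a mean FPKM of at least 1, a symbol other than a clone, RIKEN or predicted name, and over 3 counts in each group, and up to 4 called members of each of 33 lists with the smallest adjusted p. A result that this rule names is not reported here. The limit of over 3 counts covered the pluripotent and embryoid body groups only, not the LIF withdrawal libraries. The genes, lists and classes were chosen with earlier results of these data known. Promoter windows come from RefSeq, GRCm38.p6.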

Additional observations from a re-analysis of the deposited data

Results flagged for a closer look

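The response to embryoid body formation differed between genotypes at 5857 genes by the direct test of that difference. The genotype difference also differed between embryoid bodies and LIF withdrawal at 481 genes, tested in the same way, a count that fell to 166 without KO embryoid body library 1 and to 116 in limma on log2(FPKM + 1). Genes named by class were chosen with the same embryoid body libraries. Among them, this second difference (KO minus WT in embryoid bodies minus the same after LIF withdrawal, log2) was called at 13. It was -3.35 for Fst, -2.75 for Sema6a, -2.28 for Car2, -1.54 for Prtg, -1.39 for Ebf1 and -0.92 for Pim2. It was 3.24 for Loxl4, 2.0 for Tek, 1.91 for Napsa, 1.66 for Mcf2, 1.61 for Capn3, 1.53 for Ncan and 1.19 for Tspan7. For Sema6a and Fst, KO read at most 0.21 FPKM in both cultures. WT read 21.6 and 29.8 FPKM in embryoid bodies and 4.51 and 7.49 FPKM after LIF withdrawal, each from a single library. Loxl4 was at 0.08 FPKM in both KO LIF withdrawal libraries and at 1.06 FPKM in WT there. The calls of Sema6a, Car2, Tek, Napsa and Mcf2 held under all 9 alternatives. Capn3 and Prtg lost theirs in limma on log2(FPKM + 1) alone. Of the 9 alternatives, Fst kept the call under 5, losing it without KO embryoid body library 2 (adjusted p = 0.125), without either LIF withdrawal library of KO and with no filter on low values. Ncan, Ebf1 and Pim2 also kept it under 5 and Tspan7 under 4, and Loxl4 under 3 of the 7 that could be run. For these 5 genes limma on log2(FPKM + 1) and the fit without KO LIF withdrawal library 1 lost the call, as did leaving out at least 1 of the KO embryoid body libraries, and DESeq2 lost it for Ncan and Tspan7.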

How the results depend on the processing

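The number of genes with a different response was 5857, and it lay between 4606 and 6626 under the alternatives other than DESeq2, which called 3284 (1728 higher, 1556 lower). Without normalization factors the median response difference over all genes moved from 0.04 to 0.16 and the share of calls that were higher from 53.4% to 63.8%. Leaving out each KO pluripotent or embryoid body library in turn gave 4606 to 5391 genes, 2481 to 2888 higher and 2125 to 2503 lower, and leaving out either KO LIF withdrawal library, which enters through the shared spread, gave 6045; the single WT libraries could not be left out. The classes moved with their limit: at 3-fold the start class held 518 genes, the embryoid body class 165, the crossing class 10, the same-side class 36 and the rest 1904. At 1.5-fold the crossing class held 368, the same-side class 273 and the rest 119. Sorting by edgeR calls in place of folds gave 669, 348 and 63. With DESeq2 the same-side class held 74 and the rest 591, and the rest held 542 in limma on log2(FPKM + 1) and 522 on quantile-normalized values. Leaving out libraries gave 920 to 1205 start genes, 372 to 399 embryoid body genes, 67 to 73 crossing genes, 84 to 125 same-side genes and 798 to 925 others. Genes whose difference in embryoid bodies differed from that after LIF withdrawal numbered 236 with DESeq2, 116 with limma and 166 to 565 without 1 library. The cause of these shifts was not tested. Of 153 named genes 138 had a value in all 15 alternatives, and 126 of these kept their call in each; of the other 15, 9 kept it wherever they were tested. Col1a1, a collagen, reversed in sign, at -0.17 in limma on log2(FPKM + 1) and -0.47 on quantile-normalized values, from 1.23. Under 3 counts in a group the depth sets no size.

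The deviations of same-numbered KO libraries correlated at 0.02 to 0.18 over all genes and at 0.08 to 0.31 over the 8789 genes with a mean of at least 5 FPKM. Since not every pair passed 0.1 in either set and the labels do not tie the numbers, they were not used to pair libraries. With the number as a replicate block 6626 genes were called in the response (3527 higher, 3099 lower) and 1172 in the comparison with LIF withdrawal, and all 153 named genes kept their call.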

Other observations

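Germline genes, which embryonic stem cells express at low levels, had 8 of 19 higher in the KO response, 1 lower and 10 not called, with a median response difference of 0.99, or 0.37 in limma on quantile-normalized values. The lower one was lost without KO embryoid body library 2 or KO pluripotent library 1. Stra8, the gatekeeper of meiosis, fell in WT from 9.53 to 2.94 FPKM and rose in KO from 1.80 and 4.49 to 21.4 and 15.5 FPKM. The KO libraries passed from below WT to above it, with 4.12 ± 0.49 (adjusted p = 6.13e-05). Prdm14, a regulator of germ cells and naive stem cells, crossed in the same way, with 2.31 ± 0.24. Tex14, of the bridges between germ cells, had 2.72 ± 0.24 (adjusted p = 8.19e-06), and its KO embryoid bodies were at 5.40 and 5.56 FPKM against 1.56 FPKM in WT. Prdm1, which specifies germ cells and is also active in endoderm, had 2.12 ± 0.29. Of the 2-cell-like list 4 of 11 were higher in the response and 2 lower. Without KO embryoid body library 1 or KO pluripotent library 1, only 1 member was higher. At the start 10 were lower in KO and 1 higher, median -3.16, where 26.3% of all genes were lower. In embryoid bodies 9 were lower and none higher, median -1.95, where 17.8% of all genes were lower. Zscan4b, of a family of near-identical copies whose reads the counting could split, was at 25.9 FPKM in WT against 0.93 and 1.80 FPKM in KO at the start, and at 35.9 FPKM in WT against 11.5 and 8.96 FPKM in KO embryoid bodies, lower in KO throughout, with 2.30 ± 0.31 (adjusted p = 0.000143).

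Antigen presentation genes had 7 of 18 lower and 3 higher, median -0.46, which was -0.29 without KO pluripotent library 2 and -0.66 without KO pluripotent library 1. B2m, the light chain of MHC class I, rose in WT from 28.5 to 75.6 FPKM and fell in KO from 128 and 128 to 86.4 and 76.5 FPKM. The KO excess of the start was nearly gone in embryoid bodies, with -2.19 ± 0.16 (adjusted p = 2.32e-06). Irf1, an interferon-induced factor, rose in WT from 8.95 to 51 FPKM and in KO from 8.50 and 8.46 to 19.3 and 20.5 FPKM, with -1.40 ± 0.22 (adjusted p = 0.000396). Imprinted genes had 8 of 27 lower and 5 higher. Igf2, a fetal growth factor, was at 5.90 FPKM in WT against 0.38 and 0.31 FPKM in KO embryoid bodies, from 2.43 and from 1.32 and 1.68 FPKM, with -3.16 ± 0.39 (adjusted p = 8.24e-05). Peg10, a retrotransposon-derived placental gene, had -1.93 ± 0.16 from a KO excess at the start, and Gnas, a G-protein subunit, -1.41 ± 0.12 from a KO deficit in embryoid bodies. Epithelial adhesion genes had 8 of 20 higher and 8 lower. Zeb1, a repressor of epithelial genes, fell in WT from 3.0 to 0.83 FPKM and was at 5.58 and 5.72 and then 7.12 and 7.30 FPKM in KO, with 2.06 ± 0.22 (adjusted p = 3.19e-05), while the keratin gene Krt8 went the other way.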
